A study of Mus musculus with 6 samples.

Results

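Glutamate and GABA carry most of the fast signals between cortical neurons, and their receptors are built from subunits, each encoded by its own gene. Ionotropic glutamate receptors are channels made of AMPA, kainate or NMDA subunits. AMPA receptors carry most of the fast excitatory current, kainate receptors tune release and excitability, and NMDA receptors need an obligatory GluN1 subunit beside GluN2 or GluN3 subunits and let calcium in when their magnesium block is lifted. The delta subunits belong to the same family by sequence but act mainly as synapse organizers. Metabotropic glutamate receptors and GABA-B receptors signal through G proteins, and GABA-A receptors are chloride channels assembled mostly from alpha, beta and gamma subunits. In the embryonic cortex, immature neurons and progenitors already carry some of these receptors before most synapses exist.

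The symbols of 48 rows matched the receptor gene names, of 17920 genes listed, and 46 of the 48 encode receptor subunits. The other two are a scaffold protein gene and Grin1os, an RNA transcribed opposite to Grin1, and both were kept out of the receptor groups. The 46 genes are 4 AMPA, 5 kainate, 2 delta, 7 NMDA and 8 metabotropic glutamate receptor genes, 18 GABA-A receptor genes (the rho subunits included) and 2 GABA-B receptor genes. Members were taken by symbol, not by their values, but the receptor genes as a list were chosen with earlier results of these data known.

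RNA was sequenced from 3 libraries labelled WT and 3 labelled KD, all from mouse cortex at E13.5 (the embryonic day) according to the labels. By the methods of the study the RNA came from cells dissociated from such cortices and cultured, infected with an shRNA lentivirus and treated with puromycin, which kills cells that carry no virus, so that the WT libraries are control cultures and not untouched tissue. The series text speaks of a deletion of Ybx1, whereas the labels say KD and the methods describe a knockdown. By those methods the KD libraries are cultures in which Ybx1, an RNA-binding protein that reads the m5C mark on RNA, was knocked down. Strain and age in culture are not given for the libraries, nor which of the Ybx1 hairpins was used, and effects of a hairpin on other transcripts cannot be told apart from effects of losing Ybx1.

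Ybx1 itself was at 641, 630.35 and 687 TPM (a level corrected for transcript length and library size) in the WT libraries and at 106, 100.2 and 168 TPM in the KD libraries, a mean of 19.1% of the WT level (log2 fold change -2.43 ± 0.18, SE, edgeR adjusted p = 0.000182). No library went against its label. The libraries held 16294635 to 16497505 estimated counts, of which the receptor genes took 0.478% to 0.532%.

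The labelled tissue was checked against markers of the cells it could hold. Counts of markers are of genes past an adjusted p of 0.05 in edgeR, which 12% of all genes tested passed as higher and 11.9% as lower, and of those past it with the replicate number as a block (18.6% higher and 18.1% lower). Pan-neuronal markers summed to 5330 to 5861 TPM in the WT libraries and 5078 to 5741 TPM in the KD libraries, and 2 of 10 rose and 1 fell, with the same counts under the block. Markers of radial glia, the cortical stem cells, summed to 3272 to 3701 TPM in WT and 3693 to 3975 TPM in KD, with 2 of 10 higher and 1 lower (5 and 1 with the block). Most of that sum was Fabp7, at 2368 to 2705 TPM in WT and 2728 to 2842 TPM in KD, which was not called. The marker list that stood most apart was that of intermediate progenitors, the dividing cells between radial glia and neurons. Of its 7 markers tested 5 rose (Eomes, Neurog2, Insm1, Btg2 and Hes6) and none fell, all 7 rose with the block, and the list summed to 149.98 to 174 TPM in WT and 245 to 279 TPM in KD. Cortical excitatory neuron markers (2 of 10 higher, and 6 higher and 1 lower with the block) summed to 607 to 882 TPM in WT and 838 to 1058 TPM in KD, and those of the GABAergic lineage (2 of 11 higher, and 3 higher and 3 lower with the block) to 3517 to 6311 and 2790.0 to 4541 TPM. Most of the GABAergic sum was Sst, at 5449, 3854 and 2950 TPM in WT and 3614, 2991 and 2194 TPM in KD. Sst passed, as lower, only with the block. Of the 11 GABAergic markers 7 lay above 0 on the log2 scale and 4 below. Oligodendrocyte lineage markers (2 of 7 lower, Olig1 and Cspg4, and 4 lower with the block) summed to 326 to 432 TPM in WT and 280.0 to 350 TPM in KD. No marker of astrocytes (7 tested) or Cajal-Retzius cells (5 tested) passed without the block, and with it 1 Cajal-Retzius marker was higher and 1 lower, with sums of 408 to 627 and 103 to 130 TPM in WT and 479 to 619 and 109 to 135 TPM in KD. Microglial, endothelial and mural, and meningeal markers reached at most 4.28, 5.46 and 5.76 TPM in any library, and of these Pdgfrb rose. In bulk RNA fewer cells of a type and less RNA per cell cannot be told apart, and the part of these marker shifts in the receptor values below was not tested.

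The AMPA subunits and the NMDA subunit GluN1 are shown here by the stretch of coding sequence at the tip of the pore loop. This site bears on what the channel lets through. The printed sequences do not show how GluA2 differs there from the other AMPA subunits, because that difference arises by editing of the mRNA. The windows are 30 bases long, from the GENCODE M21 transcripts on GRCm38, written from 5′ to 3′ on the coding strand, and the pore codon is in capitals. They lie at chr11:57243082-57243111 on the plus strand in exon 11 of 16 (Gria1), at chr3:80706896-80706925 on the minus strand in exon 11 of 16 (Gria2), at chrX:41610253-41610282 on the plus strand in exon 11 of 16 (Gria3), at chr9:4464122-4464151 on the minus strand in exon 12 of 17 (Gria4), and at chr2:25297371-25297400 on the minus strand in exon 14 of 21 (Grin1).
Gria1: ggggccttcatgCAGcaaggatgtgacatt
Gria2: ggtgcctttatgCAGcaaggatgcgatatt
Gria3: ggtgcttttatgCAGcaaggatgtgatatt
Gria4: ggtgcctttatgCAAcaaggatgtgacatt
Grin1: ggcgtcctgctcAACtctggcattggggaa

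In the genome, the 4 AMPA genes all encode glutamine at this codon. Gria2 and Gria3 share 28 of the 30 bases and Gria1 and Gria2 share 26, whereas Grin1 shares 10 or 11 bases with each AMPA gene. In Gria2 mRNA this glutamine codon is edited by deamination of its adenosine to an arginine codon (the Q/R site), and receptors that contain edited GluA2 pass little calcium, whereas receptors of GluA1, GluA3 or GluA4 alone pass it. The asparagine of GluN1 in the corresponding window helps to form the site of the magnesium block. Editing was not measured in these data, which give one value per gene and library.

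Of the 46 receptor genes, 41 had enough counts to be tested, and 13 of the 41 (31.7%) differed between KD and WT at an adjusted p of 0.05 in edgeR's quasi-likelihood test. Over all 13669 genes tested, 24% passed the same threshold. Higher in KD were 2 receptor genes, Gria2 among them, beside 12% of all genes. Lower in KD were 11, among them Grin1, Grin2c, Grin2d, Gria3, Gria4, Grik1, Grm2, Grm5, Gabra3 and Gabbr1, beside 11.9% of all genes. The median log2 fold change was -0.17 over the 41 genes and -0.0013 over all genes tested, and 29 of the 41 lay below 0. The TPM of the WT and KD libraries did not overlap for 14 of the 41 (34.1%), beside 41.4% of all genes. The calls over all genes were split evenly (50.2% higher), but on the log2(TPM + 1) scale 65.9% of them were higher, and 2 receptor genes then rose and 6 fell. With the replicate number as a block in the fit, which uses the pairing of the libraries, 26 of the 41 receptor genes passed, 6 higher and 20 lower, where 36.6% of all genes passed (18.6% higher and 18.1% lower). All 13 genes called without the block were called with it, in the same direction. Leaving out libraries also changed the share of all genes called, given here in brackets. Without WT replicate 1, 7 receptor genes were lower (16.6%), and without WT replicate 3, 4 were higher (23.1%). Without KD replicate 2 none was higher and 8 were lower (12.6%), and without KD replicate 3, 1 was higher (18.5%). Without both replicate 2 libraries Grin1 alone remained called, where 1.66% of all genes passed.

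**Figure D1:**
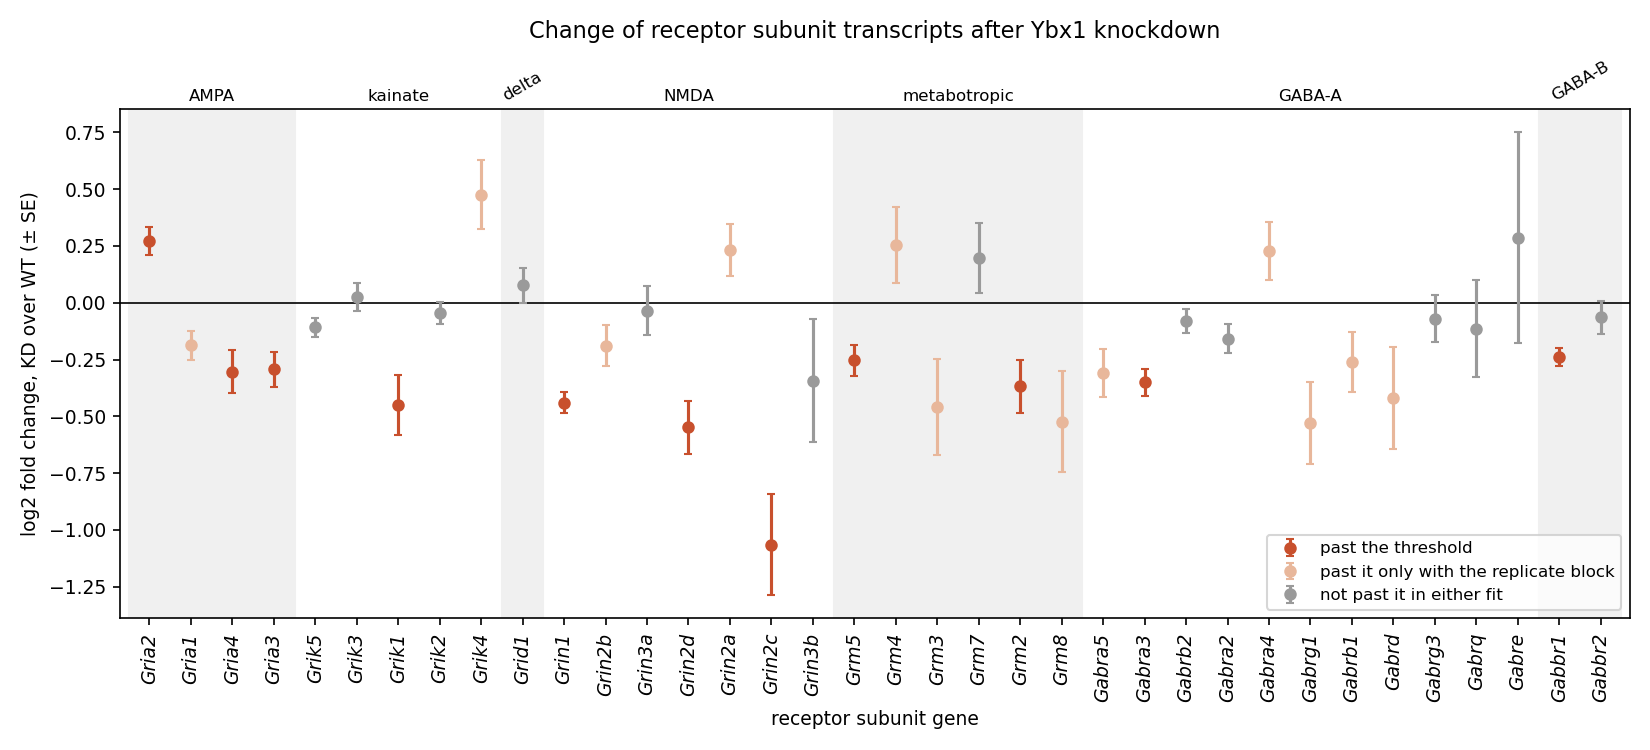
Log2 fold change of KD over WT (y axis, bars ± SE from the fit over 3 WT and 3 KD libraries) for 36 of the receptor genes tested, ordered within each group by mean TPM. Dark points passed the adjusted p of 0.05, pale points passed only with the replicate block, and grey points in neither fit. Of the 36, 27 lie below 0, and Grin2c lies lowest at -1.07.

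Members called are counted here by group, beside 12% of all genes tested called higher and 11.9% called lower. Differences between groups were not tested. Of 4 AMPA genes 1 was higher and 2 were lower (median log2 fold change -0.24), and of 5 kainate genes 1 was lower (median -0.05). Of 7 NMDA genes 3 were lower and none higher (median -0.34). Among the 7 metabotropic genes tested 1 was higher and 2 were lower (median -0.25). Of 14 GABA-A genes tested 2 were lower and none higher (median -0.17), and of 2 GABA-B genes 1 was lower. Put together by transmitter, 10 of 25 glutamate receptor genes tested (40%) and 3 of 16 GABA receptor genes tested (18.8%) were called, beside 24% of all genes. The replicate block called 18.6% of all genes higher and 18.1% lower. Under it 5 glutamate receptor genes were higher and 12 lower, and 1 GABA receptor gene was higher and 8 were lower. With the block 7 GABA-A genes were lower and 1 was higher, and 4 NMDA genes were lower and 1 was higher.

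Summed over a group, TPM fell outside the WT range in all KD libraries for NMDA, GABA-A and GABA-B genes. The NMDA genes summed to 178, 163 and 184 TPM in WT and to 140.2, 147 and 144 TPM in KD, a ratio of means of 0.823. GABA-A genes summed to 480.2, 451 and 462 TPM in WT and to 392, 425 and 420.2 TPM in KD (0.888), and GABA-B genes to 369, 363 and 367 TPM in WT and to 325, 338 and 332 TPM in KD (0.905). In these groups the KD libraries all lay below the lowest WT library. The AMPA sums overlapped, at 425 ± 10.7 TPM in WT and 438 ± 29.5 TPM in KD (SD, n = 3 each), as did those of kainate (324 ± 10.8 and 315 ± 7.78 TPM) and metabotropic genes (129 ± 14.1 and 123 ± 3.71 TPM). A sum is set mostly by its most abundant members. For NMDA this was Grin1, with means of 102.3 TPM in WT and 78.3 TPM in KD. For GABA-B it was Gabbr1 (287 and 253 TPM), whereas Gabbr2 stayed at 79.3 and 78.5 TPM. Taken singly, 41.4% of all genes tested had no overlap in TPM between WT and KD.

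**Figure D2:**
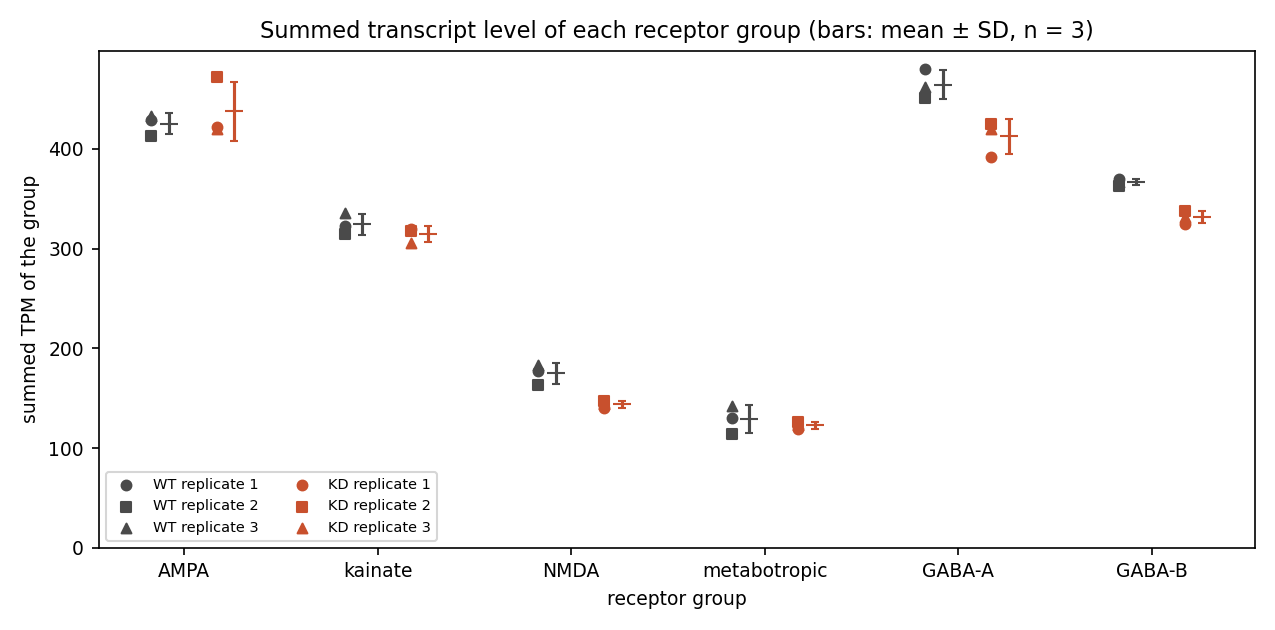
Summed TPM of each receptor group other than delta (y axis) in each library, with the mean ± SD of 3 libraries beside the points. NMDA, GABA-A and GABA-B sums of the KD libraries lie below all WT libraries (means 175 and 144, 464 and 412, 367 and 332 TPM), and the other groups overlap.

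Among the AMPA receptor genes, Gria2 moved up while Gria3 and Gria4 moved down. Gria2, which encodes GluA2, the subunit that limits calcium entry, was at 170.0, 177 and 191 TPM in WT and at 203, 243 and 226 TPM in KD. It was the most abundant AMPA transcript in every library, and its KD values lay above all WT values. The change was 0.27 ± 0.062 on the log2 scale (SE), or 1.21-fold (edgeR adjusted p = 0.0154), and without KD replicate 2 it no longer passed (adjusted p = 0.0596). With the replicate block and every library kept, the edgeR adjusted p of Gria2 was 0.000195. Gria3, the gene of GluA3, was at 30.6, 27.76 and 33.45 TPM in WT and at 24.0, 26.95 and 26.67 TPM in KD, and the highest KD library lay only a little below the lowest WT library. Its log2 fold change was -0.29 ± 0.076 (adjusted p = 0.0245 in edgeR), and it missed the threshold when any one of WT replicates 1 and 3 or KD replicates 1 and 2 was left out (adjusted p of 0.054 to 0.0727). The block, with every library kept, gave Gria3 an edgeR adjusted p of 0.00238. Gria4, the gene of GluA4, was at 77.5, 67.0 and 59.0 TPM in WT and at 57.1, 56.1 and 47.5 TPM in KD, with a narrow gap between the lowest WT and the highest KD library. On the log2 scale the change was -0.30 ± 0.096 (edgeR adjusted p = 0.0486), and it held only when WT replicate 3 was the library left out, with adjusted p of 0.0685 to 0.141 when another was. These fits had no block, and with the block and every library kept the edgeR adjusted p of Gria4 was 0.000459. Estimated counts of Gria4 were not whole in any of the 6 libraries, unlike those of the other AMPA genes, which is how reads assigned in part to another feature appear, so its level is less certain.

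Gria1, the gene of GluA1, a main subunit of activity-dependent AMPA receptors, was at 151, 142 and 149.97 TPM in WT and at 138, 146 and 119.8 TPM in KD. Here the groups overlapped, through KD replicate 2. Its log2 fold change of -0.19 ± 0.062 did not pass in edgeR (adjusted p = 0.0567) but did with the block (adjusted p = 0.0111) and without KD replicate 2 (adjusted p = 0.0435).

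Because Gria2 and the other 3 genes lay on opposite sides of 0, the make-up of the AMPA transcripts shifted more than their sum. Gria2 made up 39.6%, 42.7% and 44.1% of the summed AMPA TPM in WT and 48.1%, 51.5% and 53.8% in KD. Gria1 made up 34.7% ± 0.461 in WT and 30.7% ± 2.07 in KD, Gria3 7.19% ± 0.503 and 5.91% ± 0.376, and Gria4 15.96% ± 2.23 and 12.2% ± 1.17 (SD, n = 3). For all 4 genes the shares in WT and KD did not overlap. Those of Gria4 nearly met, at 13.61% in WT replicate 3 and 13.55% in KD replicate 1. Taken singly, 41.4% of all genes tested had no overlap in TPM. Shares of one sum are tied to each other, and no test was made of them.

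**Figure D3:**
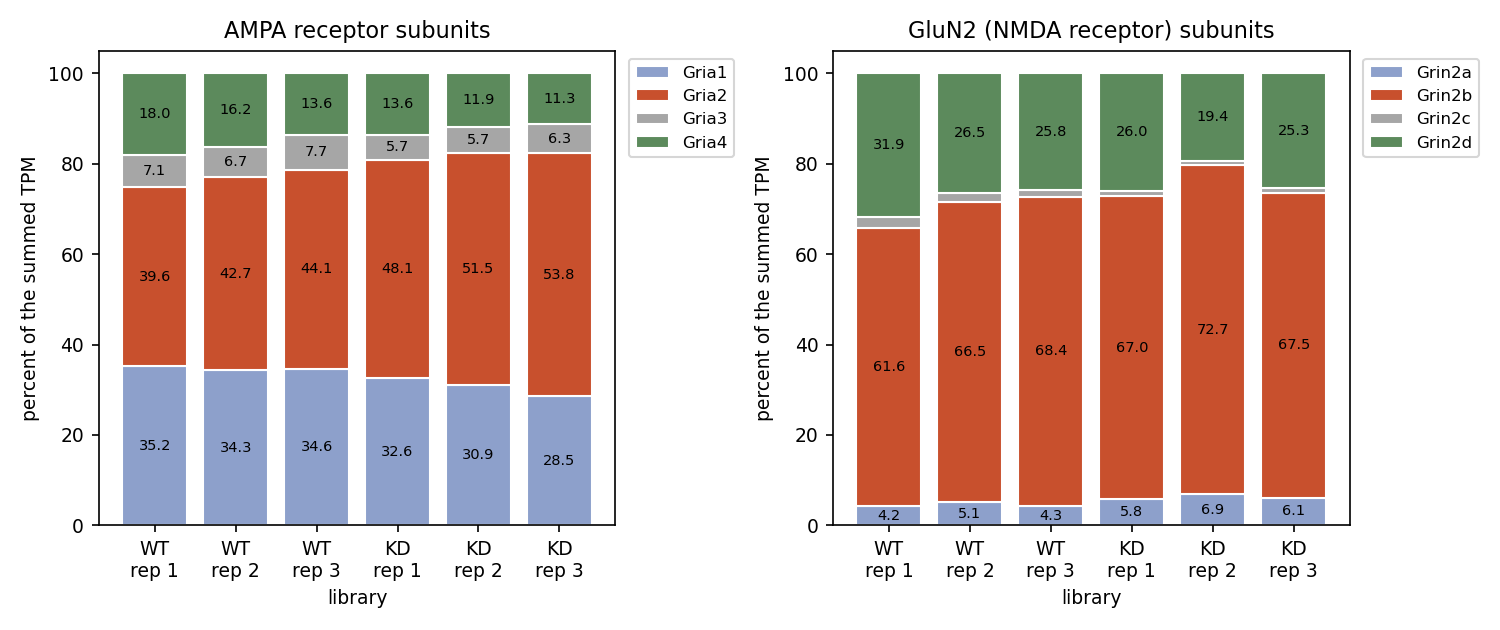
Share of each subunit in the summed TPM (y axis, percent) of the 4 AMPA genes (left) and the 4 GluN2 genes (right), 1 bar per library. Gria2 takes 39.6% to 44.1% of the AMPA sum in WT and 48.1% to 53.8% in KD, and Grin2a takes a larger share of the GluN2 sum in each KD library than in any WT library.

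The kainate receptor genes held their sum, and Grik1 was the one called. Grik5, which encodes the high-affinity subunit GluK5, was the most abundant of the 5, at 151.3, 151.0 and 157.8 TPM in WT and at 149.3, 146.1 and 148.8 TPM in KD. These values did not overlap but lay close together, and the log2 fold change of -0.11 ± 0.042 did not pass, with or without the block (edgeR adjusted p = 0.0884 and 0.0662). Grik1, the gene of GluK1, was at 57.4, 43.6 and 43.0 TPM in WT and at 40.75, 38.6 and 29.4 TPM in KD. All KD libraries lay below the WT libraries, and WT replicate 1 stood above the rest. On the log2 scale it changed by -0.45 ± 0.13 (edgeR adjusted p = 0.0368), and it no longer passed when WT replicate 1 or 2 or KD replicate 2 or 3 was left out (adjusted p of 0.0664 to 0.0954). The block, with every library kept, gave Grik1 an edgeR adjusted p of 0.000114. Grik4, the gene of the other high-affinity subunit GluK4, was the least abundant, at 6.83, 6.60 and 10.38 TPM in WT and at 12.5, 10.41 and 11.2 TPM in KD. Its highest WT library, replicate 3, nearly met the lowest KD library. A log2 fold change of 0.48 ± 0.15 just missed the threshold (edgeR adjusted p = 0.0509), and passed with the block (adjusted p = 0.00294) and without WT replicate 3 (adjusted p = 0.00476). Grik2 and Grik3, which encode GluK2 and GluK3, had log2 fold changes of -0.05 ± 0.049 and 0.02 ± 0.061, with mean levels of 30.3 and 84.7 TPM in WT. In WT the order Grik5, Grik3, Grik1, Grik2, Grik4 had no overlap between neighbours, while in KD Grik1 and Grik2 overlapped. Of the summed kainate TPM, Grik1 made up 14.8% ± 2.60 in WT and 11.5% ± 1.65 in KD (SD, n = 3). Grik3 made up 26.1% ± 1.95 and 28.4% ± 0.666, and Grik4 2.44% ± 0.569 and 3.61% ± 0.323. These shares did not overlap, by narrow gaps, whereas those of Grik2 and Grik5 did. As for AMPA, shares shifted while the sums overlapped, and this was not tested.

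Of the delta receptor genes, Grid1 was at 34.2, 30.9 and 39.45 TPM in WT and at 38.6, 38.1 and 37.7 TPM in KD, so that the KD values lay within the WT range. On the log2 scale the change was 0.08 ± 0.078 (edgeR adjusted p = 0.508).

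The NMDA receptor genes fell at the obligatory subunit and at the GluN2C and GluN2D subunits. Grin1, the gene of GluN1, was at 103.7, 98.5 and 104.7 TPM in WT and at 75.7, 81.2 and 78.0 TPM in KD. The gap between the groups was wider than the spread within either. Its log2 fold change was -0.44 ± 0.047, or 0.737 times the WT level (edgeR adjusted p = 0.000709), the smallest adjusted p among the receptor genes, and this was the one gene called under every alternative tried. Grin1os lies wholly inside Grin1 on the other strand (7403 of its 7403 bases), and whether the counting used strand is not given in the sources used here, so reads of the pair cannot be told apart. Grin1os was at 0.75 to 1.21 TPM in the 6 libraries, far below Grin1.

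Grin2d, whose GluN2D subunit is typical of early development and of interneurons, was at 16.2, 12.75 and 14.6 TPM in WT and at 10.9, 8.96 and 11.7 TPM in KD. None of the KD libraries reached the WT range. On the log2 scale the change was -0.55 ± 0.12 (edgeR adjusted p = 0.0113). Grin2c, the gene of GluN2C, a subunit best known from the cerebellum, was near the lower end of what the depth can measure, at 1.18, 0.900 and 0.860 TPM in WT and at 0.470, 0.450 and 0.490 TPM in KD. These levels rest on 50, 37 and 37 counts in WT and 23, 18 and 19 in KD. Its log2 fold change of -1.07 ± 0.22 was the largest among the 41 genes (edgeR adjusted p = 0.0103). Both genes kept their call when any one library was left out.

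Grin2b, the gene of GluN2B, the main GluN2 subunit of the embryonic forebrain, was at 31.3, 31.97 and 38.8 TPM in WT and at 27.96, 33.66 and 31.2 TPM in KD. These groups overlapped, and the log2 fold change of -0.19 ± 0.089 passed only with the block (edgeR adjusted p = 0.156 without and 0.0147 with it). Grin2a, whose GluN2A subunit gains weight after birth, was at 2.13, 2.44 and 2.43 TPM in WT and at 2.43, 3.21 and 2.84 TPM in KD. It too overlapped, and its log2 fold change of 0.23 ± 0.12 passed only with the block (edgeR adjusted p = 0.175 and 0.0313). As shares of the GluN2 transcripts, Grin2b took 65.5% ± 3.51 in WT and 69.1% ± 3.18 in KD, Grin2d 28.1% ± 3.32 and 23.6% ± 3.67, Grin2a 4.52% ± 0.488 and 6.30% ± 0.574, and Grin2c 1.90% ± 0.403 and 1.05% ± 0.0773 (SD, n = 3). Only the shares of Grin2a and Grin2c had no overlap between the groups. Grin3a and Grin3b, which encode the glycine-binding GluN3 subunits, did not pass, with log2 fold changes of -0.03 ± 0.11 and -0.34 ± 0.27, the latter on 11 to 20 counts per library.

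**Figure D4:**
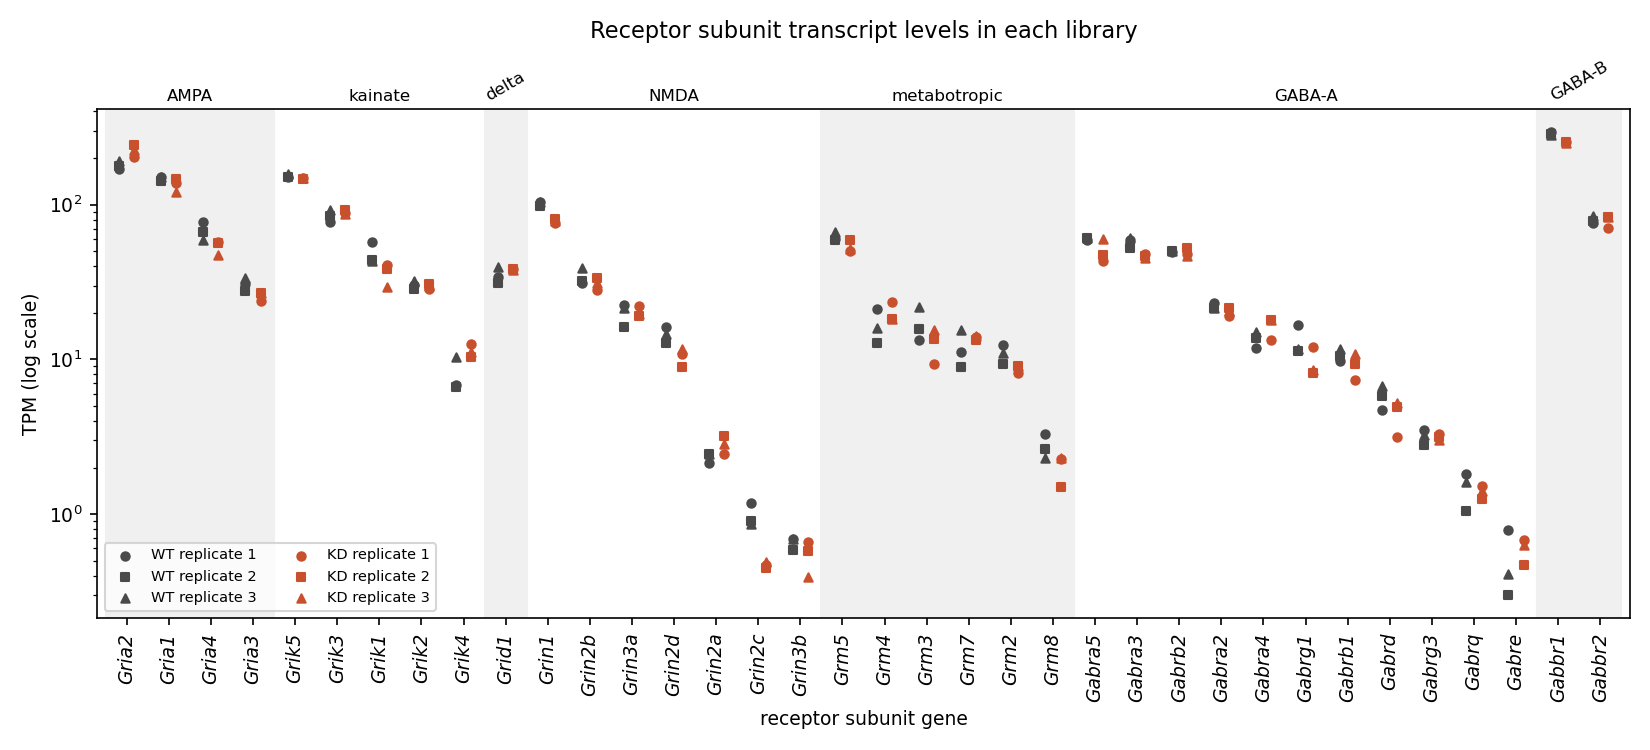
TPM (log scale on the y axis) of 36 of the receptor genes tested in each of the 3 WT and 3 KD libraries, by receptor group and in order of mean TPM within it. Levels span from 0.30 TPM (Gabre, WT replicate 2) to 294 TPM (Gabbr1, WT replicate 1), and the Grin1 and Gabbr1 values of WT and KD are separated.

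Metabotropic glutamate receptors of group I activate phospholipase C. Grm5, the most abundant metabotropic receptor gene and the one tied to cortical progenitors and young neurons, was at 59.6, 58.75 and 66.4 TPM in WT and at 49.9, 59.2 and 51.4 TPM in KD. On the TPM scale the groups overlapped through KD replicate 2, and on counts the log2 fold change was -0.25 ± 0.069 (edgeR adjusted p = 0.0291). It missed the threshold without WT replicate 2 or 3 or KD replicate 1 or 3 (adjusted p of 0.0645 to 0.0832). The block, with every library kept, gave Grm5 an edgeR adjusted p of 0.00269. Of the metabotropic TPM, Grm5 made up 47.9% ± 3.01 in WT and 43.5% ± 2.83 in KD, with overlap (SD, n = 3).

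Group II receptors, which lower cyclic AMP, are encoded by Grm2 and Grm3. Grm2 was at 12.4, 9.35 and 11.05 TPM in WT and at 8.20, 9.05 and 9.06 TPM in KD. The highest KD library lay just under the lowest WT library. Its log2 fold change was -0.37 ± 0.12 at the edge of the threshold (edgeR adjusted p = 0.0496), and the call was lost without WT replicate 1 or 3 or any KD replicate (adjusted p of 0.0785 to 0.159). The block, with every library kept, gave Grm2 an edgeR adjusted p of 0.0141. Grm3, also found in astroglia, was at 13.4, 15.7 and 21.9 TPM in WT and at 9.31, 13.51 and 15.45 TPM in KD. Each KD library was below the WT library of its number although the groups overlapped, and the log2 fold change of -0.46 ± 0.21 passed only with the block (edgeR adjusted p = 0.144 and 0.00034).

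Group III receptors are mostly presynaptic and are encoded by Grm4, Grm6, Grm7 and Grm8. Grm4 was at 21.2, 12.7 and 15.9 TPM in WT and at 23.6, 18.1 and 18.2 TPM in KD, and Grm8 at 3.30, 2.65 and 2.32 TPM in WT and at 2.28, 1.49 and 2.32 TPM in KD. Both overlapped between the groups. The log2 fold change of Grm4 was 0.25 ± 0.17 (edgeR adjusted p = 0.299, with the block 0.0132, without WT replicate 1 0.0392), and that of Grm8 was -0.52 ± 0.22 (edgeR adjusted p = 0.12, with the block 0.0353). Grm7 had a log2 fold change of 0.20 ± 0.15 and did not pass in either fit. Grm6, the receptor of retinal bipolar cells, was not tested, with 0 to 3 counts per library. In WT, Grm5 stood above the genes of groups II and III, each neighbour in the order Grm3, Grm4, Grm7, Grm2 overlapped the next, and Grm8 and Grm6 lay below them.

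Among the GABA-A receptor genes, Gabra3, an alpha subunit gene of the embryonic cortex, was at 59.2, 52.3 and 60.5 TPM in WT and at 48.2, 46.8 and 44.9 TPM in KD. All KD libraries lay below the WT libraries. The log2 fold change was -0.35 ± 0.060, or 0.785 times the WT level (edgeR adjusted p = 0.00455), and the call stood when any single library was left out.

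Among the other alpha subunit genes, Gabra5, which encodes a subunit of extrasynaptic receptors, was at 58.7, 60.9 and 60.5 TPM in WT and at 43.5, 47.5 and 59.9 TPM in KD. KD replicate 3 lay at the WT level and the other two KD libraries below it. A log2 fold change of -0.31 ± 0.11 did not pass (edgeR adjusted p = 0.0646), but did with the block (0.00445) and without KD replicate 3 (0.00428). Gabra4, which pairs with the delta subunit, was at 11.9, 13.7 and 15.1 TPM in WT and at 13.4, 18.01 and 17.8 TPM in KD. It overlapped through KD replicate 1, and its log2 fold change of 0.23 ± 0.13 (edgeR adjusted p = 0.225) passed with the block (0.0202) and without KD replicate 1 (0.0397). Gabra2 had a log2 fold change of -0.16 ± 0.063 and did not pass in either fit. As shares of the alpha transcripts, Gabra4 took 7.89% ± 0.848 in WT and 10.6% ± 1.12 in KD, without overlap, whereas the shares of Gabra5 (35.0% and 32.3%) and Gabra3 (33.4% and 30.2%) overlapped (SD, n = 3).

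Of the beta subunit genes, Gabrb1 was at 9.71, 10.45 and 11.7 TPM in WT and at 7.38, 9.34 and 10.8 TPM in KD, and its log2 fold change of -0.26 ± 0.13 (edgeR adjusted p = 0.18) passed with the block (0.0045) and without KD replicate 3 (0.0394). Gabrb2 lay at 50.0 ± 0.348 TPM in WT and 48.9 ± 3.30 TPM in KD (SD, n = 3) and did not pass.

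Gabrg1, whose gamma1 subunit is also found in glia, was at 16.6, 11.3 and 11.7 TPM in WT and at 12.05, 8.12 and 8.56 TPM in KD. Replicate 1 was the highest library of each group, so the groups overlapped. Its log2 fold change of -0.53 ± 0.18 (edgeR adjusted p = 0.0638) passed with the block (5.8e-05) and without KD replicate 1 (0.027). Gabrd, which encodes the delta subunit of tonic inhibition, was at 4.71, 5.79 and 6.76 TPM in WT and at 3.15, 4.95 and 5.22 TPM in KD. This gene overlapped as well, and its log2 fold change of -0.42 ± 0.22 (edgeR adjusted p = 0.205) passed only with the block (0.0477). The low GABA-A genes Gabrg3, Gabrq and Gabre had mean levels of 3.18, 1.49 and 0.50 TPM in WT and log2 fold changes of -0.07 ± 0.10, -0.11 ± 0.21 and 0.29 ± 0.46, and none passed. Gabra6, the alpha subunit gene of cerebellar granule cells, had 1 count in WT replicate 2 and 0 in the other libraries. Of the rho subunit genes, known from the retina, Gabrr3 had 1 count in KD replicate 1 and 0 elsewhere, Gabrr1 had 2 to 8 counts and Gabrr2 3 to 13 counts per library, and these 4 genes were not tested. Gabrr2 had 13, 11 and 4 counts in WT and 4, 3 and 5 counts in KD, which overlap.

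Many GABA-A receptor genes lie in clusters, in which genes of different subunit classes are neighbours on the chromosome. On GRCm38, by RefSeq positions, Gabrg1, Gabra2, Gabra4 and Gabrb1 span 1399 kb at chr5:70751047-72149572, and Gabre, Gabra3 and Gabrq span 586 kb at chrX:72256926-72842607. Called and uncalled genes stood side by side on the X chromosome, where Gabra3 was lower at -0.35 while its neighbours Gabre and Gabrq did not pass. Gabre and Gabrq rested on 5 to 17 and 42 to 75 counts per library, against 1255 to 1686 for Gabra3. Their SEs were 0.46 and 0.21, against 0.060, so a change of the size of that in Gabra3 could be missed in them. In the cluster on chromosome 5 Gabra4 was at 0.23 and its neighbours at -0.16 (Gabra2), -0.26 (Gabrb1) and -0.53 (Gabrg1), and none of these passed without the block. Differences between neighbours were not tested.

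**Figure D5:**
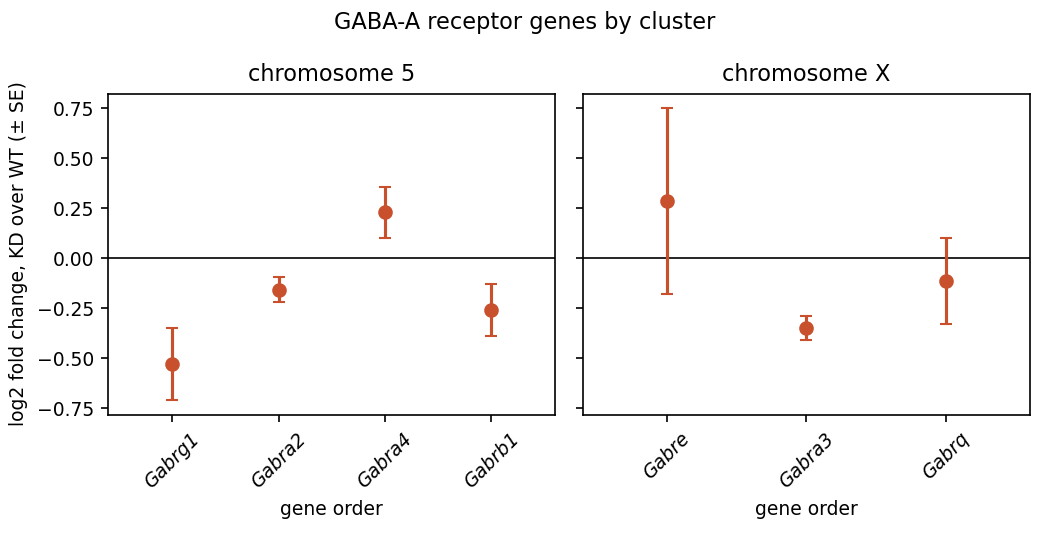
Log2 fold change of KD over WT (y axis, bars ± SE) of the GABA-A receptor genes in these 2 clusters, in their order along the chromosome (x axis, not to scale). Gabra3 (-0.35) is the one gene shown that passed without the block.

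GABA-B receptors are heterodimers of the products of Gabbr1, which binds GABA, and Gabbr2, which couples to the G protein. Gabbr1 was the most abundant of all 46 receptor genes, at 294, 285 and 283 TPM in WT and at 255, 255 and 249.5 TPM in KD. The KD libraries lay close together and below all WT libraries. The log2 fold change was -0.24 ± 0.040, or 0.847 times the WT level (edgeR adjusted p = 0.00432), and the call stood when any one library was left out. Gabbr2 was at 79.3 ± 4.12 TPM in WT and 78.5 ± 7.13 TPM in KD (SD, n = 3), with a log2 fold change of -0.06 ± 0.073 that did not pass (edgeR adjusted p = 0.564).

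Receptors act with auxiliary subunits, scaffolds and the enzymes and carriers of their transmitters, and 79 such genes were looked at in 4 lists. Of the 78 tested, 5 were higher and 15 lower (25.6% called, beside 24% of all genes). With the block 9 were higher and 25 lower, where 18.6% of all genes were higher and 18.1% lower. The auxiliary subunits of AMPA and kainate receptors had 4 lower and 2 higher of 17 (35.3%), with or without the block (median log2 fold change -0.11). Cnih2, a cornichon that helps AMPA receptors leave the endoplasmic reticulum and slows their closing, was at 447, 450.0 and 474 TPM in WT and at 321, 319 and 368 TPM in KD (log2 fold change -0.50 ± 0.068, edgeR adjusted p = 0.00186). Also lower were Shisa6, which holds AMPA receptors at synapses, at -0.64 ± 0.086, Frrs1l, which acts in AMPA receptor assembly, at -0.32 ± 0.057, and Cacng7, a TARP subunit, at -0.27 ± 0.046. Gsg1l, an auxiliary subunit that dampens AMPA currents, and Cacng5, another TARP, were higher by 0.59 ± 0.19 and 0.50 ± 0.13, and the TPM of Gsg1l overlapped between the groups.

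Of 23 scaffold and clustering genes of glutamate synapses 7 were lower and 3 higher with the block, which called 36.6% of all genes. Without the block 4 were lower and 2 higher (26.1%, beside 24% of all genes, median log2 fold change -0.10). Among the lower ones were Nptxr, the neuronal pentraxin receptor, at -0.48 ± 0.11, Shank3 at -0.37 ± 0.044 and Pick1, which binds the tail of GluA2, at -0.26 ± 0.070. Homer2, which links to group I metabotropic receptors, and Dlg1, a scaffold of the PSD-95 family, were higher by 0.47 ± 0.078 and 0.37 ± 0.056. Among 17 partners of GABA receptors 3 were lower and 1 higher (23.5%), and 3 and 3 with the block (median log2 fold change 0.01). Kctd12, an auxiliary subunit of GABA-B receptors, was lower at -0.48 ± 0.083, Gabarapl1, a relative of the GABA-A receptor-associated protein that also serves autophagy, at -0.42 ± 0.054, and Clptm1, which retains GABA-A receptors inside the cell, at -0.25 ± 0.044. Plcl1, which binds GABA-A receptors and their trafficking proteins, was higher by 0.59 ± 0.066. The scaffold gephyrin (Gphn) was not among the genes called.

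Of 21 genes tested for synthesis, breakdown and transport of glutamate and GABA, 4 were lower and none higher (19%, beside 24% of all genes, median log2 fold change -0.17). With the block 11 were lower and 1 was higher, where 18.1% of all genes were lower and 18.6% higher. The 4 were Slc1a4, a carrier of neutral amino acids, at -0.48 ± 0.070, Aldh5a1, which completes the breakdown of GABA, at -0.39 ± 0.074, Srr, which makes the NMDA receptor co-agonist D-serine, at -0.34 ± 0.067, and Glul, glutamine synthetase of glia, at -0.29 ± 0.072. Counts of Srr and of Nptxr above were not whole in any library. For all 4 the TPM of the KD libraries lay below those of the WT libraries, but they had been called on these same libraries. Over the list the TPM did not overlap for 5 of the 21 genes tested (23.8%), beside 41.4% of all genes.

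The receptor genes have longer transcripts than most, with a median length at percentile 74.6 of the genes tested. Over the 13669 genes the log2 fold change had a Spearman rho of 0.119 with transcript length, a description across genes that are not independent. With offsets that remove a trend on length in each library, 2 receptor genes were higher and 14 lower, where 24.9% of all genes passed.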

How the data were processed

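Polyadenylated RNA of cultured mouse cortical cells was sequenced on the DNBSEQ platform in 3 WT and 3 KD libraries. The deposited table gives an estimated count (an expected count with decimals), an FPKM and a TPM value for each gene and library, which the authors made from the reads. The submitters' processing notes name HISAT2 2.2.1, Bowtie2 2.4.5, RSEM 1.3.1 and GRCm38 (mm10). Their roles, the annotation and the use of strand are not given in the sources used here. Between 89.3% and 89.9% of the estimated counts in a library were whole numbers. The FPKM columns and the authors' group means, 12 columns in all, were not used. Control columns were matched to the WT titles by replicate number.

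After rounding, the estimated counts entered edgeR 4.0.16 under R 4.3.3 (TMM scaling, filterByExpr with a minimum count of 10, quasi-likelihood F-test, no block, two-sided), with Benjamini-Hochberg adjustment over the 13669 genes that passed the filter and a threshold of 0.05. The SE of a log2 fold change is its size divided by the square root of F. Fold changes come from counts, and levels and sums are TPM as deposited, with mean ± SD over 3 libraries. The biological coefficient of variation was 7.69%. A floor of 3 counts equals 0.1818 to 0.1841 CPM. The fit was tested on simulated data with known changes. These held no replicate effect, so they cannot show how the pairing of the libraries acts on the fit.

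The series text speaks of 3 batches in different biological replicates, and the study's methods of independent experiments. Deviations from the group means correlated between libraries of the same number (0.35, 0.32 and 0.18) and not between other pairs (-0.28 to -0.02). Deviations within a group are tied to each other, so these correlations are not independent. The blocked fit takes the libraries as paired by replicate number, and the pairing itself was not tested. Values from a fit blocked on these numbers are given beside receptor genes whose call the block, or leaving out a library, changes. For the other lists they are given as counts. Fits with libraries left out had no block. Replicates of a group differed by more than sampling noise.

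A few genes of the lists, counted in the totals, are not reported here. For the others, values in each library are given for genes past the threshold with or without the block and for the most abundant gene of each group. From each partner list at most 4 genes past the threshold are named per direction, by size of change. The receptor genes, the partner lists and the marker lists were chosen with earlier results of these data known. Alternatives were other scalings (RLE, upper quartile, library totals), other filters, DESeq2 1.42.0, limma 3.58.1 (voom, and log2(TPM + 1) or log2(TPM + 0.1)), the replicate block, offsets on transcript length with and without the block, a threshold of 0.01, each library left out, and both replicate 2 libraries left out. Gene positions are RefSeq's on GRCm38, and coding sequences are from GENCODE M21.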

Additional observations from a re-analysis of the deposited data

How the results depend on the processing

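The counts of receptor genes called depended on the pairing of the libraries. With the replicate block 6 were higher and 20 lower, against 2 and 11 without it, and with length offsets and the block 5 were higher and 22 lower, where 40.3% of all genes passed. Over all genes the block called 2539 higher and 2470 lower, against 1646 and 1630. On log2(TPM + 1) and on log2(TPM + 0.1) 6 receptor genes were lower, where 23% of all genes passed. At a threshold of 0.01 none was higher (0) and 4 were lower, where 9.24% of all genes passed. When each library was left out in turn, 0 to 4 receptor genes were higher and 7 to 10 lower, and over all genes 779 to 1612 were higher and 797 to 1583 lower. Without both replicate 2 libraries, 0 receptor genes were higher and 1 was lower, and 135 and 93 of all genes, with fewer libraries in the fit.

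The medians of the AMPA, kainate, NMDA, metabotropic and GABA-A genes stayed below 0 under every alternative tried, and no alternative was run for the delta and GABA-B medians. The kainate median was -0.0895 with length offsets and -0.0896 with length offsets and the block, and -0.0777 without both replicate 2 libraries. The NMDA median was -0.13 on log2(TPM + 1), a scale that shrinks the changes of low genes, and -0.46 without both replicate 2 libraries. The metabotropic median was -0.0219 with no filter and -0.0234 with DESeq2, where Grm6 enters it, and the GABA-A median was -0.23 without both replicate 2 libraries. With 1 library left out, medians ranged from -0.28 to -0.18 (AMPA), -0.0751 to -0.0302 (kainate), -0.41 to -0.21 (NMDA), -0.32 to -0.20 (metabotropic) and -0.23 to -0.12 (GABA-A). No receptor gene named with its values in each library changed direction under the 19 alternatives. Of the 13 genes called, 6 (among them Gabbr1, Gabra3, Grin1, Grin2c and Grin2d) kept the call whichever single library was left out.

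Genes under about 1 TPM rest on few counts. The floor of 3 counts covers counting error only, whereas SEs and SDs include the spread between libraries.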
